A study of Mus musculus with 2 samples.

Results

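The last steps of glycolysis and the passage of lactate across the plasma membrane were described through 6 genes in mouse CD8+ effector T cells kept in low or full glucose. The 6 genes, Pkm, Ldha, Ldhb, Slc16a1, Slc16a3 and Bsg, were matched by symbol to the gene list of the deposited matrices, which holds 27998 genes, and all 6 were found once. The cells came from OT-I mice aged 8 to 12 weeks, whose CD8+ T cells carry a transgenic receptor for the ovalbumin peptide SIINFEKL. Cells of the spleen and lymph nodes were stimulated for 48 h with that peptide and expanded in medium with serum, L-glutamine, beta-mercaptoethanol and 100 U/ml interleukin-2, which both conditions shared. Cells under transient glucose restriction (TGR) had 1 mM glucose and control cells 11 mM glucose, for 20 h per the treatment protocol, whereas the sample descriptions name 3 days of growth before the exposure. Nothing in the labels says how many mice were pooled or whether TGR cells were returned to full glucose before capture. The series concerns the metabolic conditioning of such cells for adoptive cell therapy.

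There was 1 droplet library (10x Genomics, 3′ capture) per condition, so no test between the conditions was possible and every difference describes 2 libraries. Cells with at least 500 genes and under 10% of their unique molecular identifiers (UMIs, counted transcript molecules) on mitochondrially encoded genes were kept. These were 2546 TGR cells with 19696068 UMIs and a median of 6266 UMIs per cell, and 3127 control cells with 14730128 UMIs and a median of 4030. Whether the larger number of UMIs in a TGR cell came from RNA content, capture or sequencing cannot be told apart. Of all UMIs, 50.3% in TGR and 40.5% in control cells fell on ribosomal protein genes. Of the CD8 T cell markers, 7 of 8 were in the files, and at least 1 of them was detected in 97.6% of TGR and 99.0% of control cells at equal depth. Their summed level was 2585 CPM in TGR and 3491 CPM in control cells. The B cell markers summed to 12.8 CPM in TGR and 19.7 CPM in control cells, with Pax5 at 0 in both, and the myeloid markers to 58.5 and 115 CPM, nearly all from Cst3. Only 9 cell barcodes occurred in both libraries.

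Pyruvate kinase, the product of Pkm, makes pyruvate and ATP from phosphoenolpyruvate in the final step of glycolysis. Lactate dehydrogenase reduces pyruvate to lactate and regenerates the NAD+ that glycolysis needs. It is a tetramer of A subunits, encoded by Ldha, and B subunits, encoded by Ldhb. Lactate crosses the membrane together with a proton through monocarboxylate transporters, of which MCT1 (Slc16a1) and MCT4 (Slc16a3) are the usual forms, and both reach the cell surface with the chaperone basigin (CD147, Bsg). Activated T cells are known for making lactate from glucose even when oxygen is present, and the transcription factor HIF-1 is known to raise Ldha and Slc16a3, as MYC is known to raise Ldha and Slc16a1.

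Of the 6 transcripts, 3 were lower in TGR cells: lactate dehydrogenase A and both lactate transporters. Ldha was 1.90-fold lower and Slc16a3 4.28-fold lower in TGR than in control cells, Slc16a1 was 1.68-fold lower, and Pkm, Ldhb and Bsg stayed within 1.5-fold. A gene is called lower or higher here when its level in CPM, its UMIs per 1000000 UMIs of the library, differed at least 1.5-fold, the 95% counting interval of the ratio excluded 1, and it reached 10 CPM in at least 1 of the sums compared. By that rule 3 of the 6 genes were lower in TGR, against 21.8% of the 6667 genes that reached 10 CPM in a library (the scored genes), and 0 of the 6 were higher, against 9.33%. Of the 6 genes, 5 reached 10 CPM in a library and Ldhb did not. The median TGR over control ratio (log2) was -0.48 over the 6 genes and -0.16 over the 6667. The summed level of the 6 genes was 2044 CPM in TGR and 2763 CPM in control cells. All intervals given here, for ratios and for shares (exact binomial), cover counting error only. They leave out spread between cells and variation between cultures.

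Among the 3 genes lower in TGR cells, the stretch of 250 bases before a RefSeq start is shown, since these are the genes called lower together. The sequences are from RefSeq on GRCm38.p6, read 5′ to 3′ on the plus strand, which is the coding strand of all 3. The Ldha and Slc16a3 stretches lie inside the gene spans given below, which GENCODE begins at starts farther upstream. Capitals mark ACGTG, the core of the HIF response element, and GCGTG, its usual variant, on either strand, where the reverse complements read CACGT and CACGC.
Ldha, chr7:46845554-46845803: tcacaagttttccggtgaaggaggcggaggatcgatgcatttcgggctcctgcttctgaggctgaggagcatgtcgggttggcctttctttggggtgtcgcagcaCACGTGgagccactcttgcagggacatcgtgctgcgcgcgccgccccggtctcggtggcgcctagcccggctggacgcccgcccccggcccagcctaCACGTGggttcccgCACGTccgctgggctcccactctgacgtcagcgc
Slc16a1, chr3:104638414-104638663: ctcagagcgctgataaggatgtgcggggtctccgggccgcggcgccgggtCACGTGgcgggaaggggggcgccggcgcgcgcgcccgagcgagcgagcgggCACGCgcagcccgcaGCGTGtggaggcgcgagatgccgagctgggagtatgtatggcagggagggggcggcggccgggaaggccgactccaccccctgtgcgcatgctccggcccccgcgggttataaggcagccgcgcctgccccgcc
Slc16a3, chr11:120948817-120949066: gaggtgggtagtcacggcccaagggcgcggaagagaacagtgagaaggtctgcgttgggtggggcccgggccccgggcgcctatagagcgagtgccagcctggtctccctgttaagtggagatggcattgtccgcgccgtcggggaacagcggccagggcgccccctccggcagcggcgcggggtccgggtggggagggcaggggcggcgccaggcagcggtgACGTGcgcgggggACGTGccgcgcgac
The Ldha stretch holds 3 marked runs, among them 2 copies of CACGTG, the palindromic E-box that MYC and MAX are known to bind and that contains ACGTG on both strands. Slc16a1 has 3 marked runs, 1 of them CACGTG. Slc16a3 has 2 copies of ACGTG and 0 of CACGTG. Over 27025 mouse promoters of the same length, ACGTG on either strand occurs in 16.6%, GCGTG in 28.2%, either of them in 38.6% and CACGTG in 6.05%. Ldha and Pkm each have 2 annotated starts. The second Ldha start and the single Ldhb start have 1 GCGTG match each, the upstream Pkm start has 0 matches, and the downstream Pkm start has 1 ACGTG match. Bsg was not among the promoters used here. A match says only that these letters are present.

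Pkm lies at chr9:59656368-59679375 on the plus strand (GRCm38). It gives the M1 and M2 forms of the enzyme through mutually exclusive exons. Counts per gene do not separate these forms. Pkm had 18092 UMIs, or 919 CPM, in TGR cells and 11525 UMIs, or 782 CPM, in control cells. Its log2 ratio was 0.23 with an interval of 0.20 to 0.27, a 1.17-fold higher level that does not reach 1.5-fold. A TGR cell held a mean of 7.11 Pkm UMIs and a control cell 3.69, so per cell and without scaling the log2 ratio was 0.95, past 1.5-fold. Pkm was detected in 96.9% of TGR and 89.3% of control cells. After each cell was thinned to 1500 UMIs, which left out 0 TGR and 91 control cells as too shallow, these shares were 70.0% and 66.2%.

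Ldha lies at chr7:46841475-46855627 on the plus strand. It had 16887 UMIs, or 857 CPM, in TGR cells and 23937 UMIs, or 1625 CPM, in control cells. The log2 ratio was -0.92 with an interval of -0.95 to -0.89, which is 1.90-fold lower (interval 1.86 to 1.93). Of all 6667 scored genes, 9.87% had a lower ratio than Ldha. In cells thinned to 1500 UMIs, 67.2% of TGR and 85.7% of control cells held an Ldha UMI, and 7.42% of TGR and 22.7% of control cells held 4 or more. Before thinning, 95.2% of TGR and 95.9% of control cells held one. The difference depends on scaling to the total: a TGR cell held a mean of 6.63 Ldha UMIs and a control cell 7.65, a log2 ratio of -0.21 that does not reach 1.5-fold. With totals that exclude ribosomal protein and mitochondrial genes, which adds 0.26 to every log2 ratio, Ldha remained lower at -0.66. That scaling turns the split over all scored genes from 1455 lower and 622 higher in TGR into 781 lower (11.7%) and 1299 higher (19.5%). Means per cell add 0.72 to every log2 ratio, and 3.07% of scored genes were then lower and 48.2% higher.

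**Figure D1:**
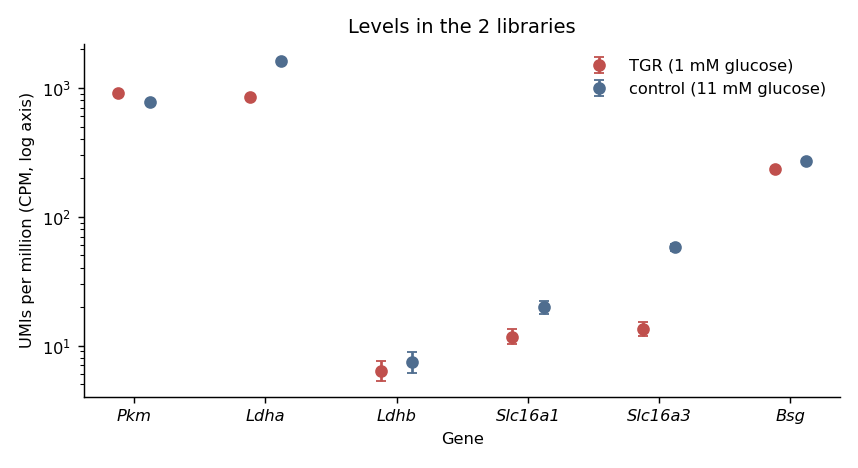
Level of each gene in CPM (log axis) in the TGR library (red) and the control library (blue), with 95% counting intervals and no replicates. Pkm stands above Ldha in TGR cells (919 against 857 CPM) and below it in control cells (782 against 1625 CPM), and Slc16a3 shows the widest gap between the libraries (13.5 against 57.9 CPM).

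Ldhb, at chr6:142490249-142507957 on the minus strand, had few UMIs in either library. It had 126 UMIs, or 6.40 CPM, in TGR cells and 109 UMIs, or 7.40 CPM, in control cells. The log2 ratio was -0.21 and its interval, -0.59 to 0.17, included 0. Ldhb was detected in 4.52% of TGR and 3.26% of control cells, and in 0.982% and 1.09% after thinning. It made up 0.741% of all Ldha and Ldhb UMIs in TGR cells (interval 0.617 to 0.881) and 0.453% in control cells (0.372 to 0.547). By phase, the Ldhb share was 0.594% in TGR and 0.696% in control G1 cells (4 control Ldhb UMIs), 0.602% and 0.392% in S, and 1.16% and 0.479% in G2/M. The larger share over all TGR cells was thus not seen in G1, and only in G2/M do the intervals of the libraries (0.865 to 1.53 in TGR, 0.377 to 0.601 in control) not overlap. Ldha thus made up 99.3% of the UMIs of Ldha and Ldhb in TGR and 99.5% in control cells. Capture of the 2 transcripts can differ, so these are shares of UMIs and not of transcripts in the cell. The part of an annotated, near-identical Ldhb pseudogene in the Ldhb counts was not tested.

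The balance of pyruvate kinase and lactate dehydrogenase A transcripts differed between the libraries. Of the UMIs of Pkm and Ldha together, Ldha made up 48.3% in TGR cells (interval 47.8 to 48.8) and 67.5% in control cells (67.0 to 68.0). This share needs no scaling between the libraries. There were 0.933 Ldha UMIs for each Pkm UMI in TGR cells and 2.08 in control cells. Single cells, counted without thinning, showed the same order, since Ldha outnumbered Pkm in 39.3% of TGR cells and 75.2% of control cells. The capture of 2 different transcripts can differ, so the balance is compared between libraries and not between the genes. This ratio was chosen after the levels had been seen.

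Slc16a1, which encodes MCT1, lies at chr3:104638668-104658462 on the plus strand. It had 231 UMIs, or 11.7 CPM, in TGR cells and 291 UMIs, or 19.8 CPM, in control cells. The log2 ratio was -0.75 with an interval of -1.01 to -0.50, or 1.68-fold lower in TGR. Detection was rare, in 8.48% of TGR and 8.95% of control cells, and in 1.92% and 3.06% after thinning. Its call did not hold under every scaling. The log2 ratio was -0.49 without ribosomal protein and mitochondrial genes in the totals, -0.57 at a common mix of cell cycle phases and -0.04 per cell, none of which reaches 1.5-fold.

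Slc16a3, which encodes MCT4, the transporter typical of cells that export much lactate, lies at chr11:120948480-120960868 on the plus strand. It had 266 UMIs, or 13.5 CPM, in TGR cells and 853 UMIs, or 57.9 CPM, in control cells. The log2 ratio was -2.10 with an interval of -2.30 to -1.90, or 4.28-fold lower in TGR (interval 3.73 to 4.94). Only 0.450% of the 6667 scored genes had a lower ratio. It was detected in 9.19% of TGR and 20.9% of control cells, and in 1.73% and 8.00% after thinning. Of the 6 genes, Slc16a3 alone was called in all 14 settings computed, and it was lower in TGR in each, with log2 ratios between -2.30 and -1.38. No cell type that should lack Slc16a1 or Slc16a3 was present in these cultures, so the share of UMIs that came from free RNA could not be measured.

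Slc16a3 took a smaller part of the UMIs of the 2 lactate transporters in TGR than in control cells. Slc16a3 made up 53.5% of their joint UMIs in TGR cells (266 of 497, interval 49.0 to 58.0) and 74.6% in control cells (853 of 1144, interval 71.9 to 77.1). The difference was -21.0 percentage points. In cells thinned to equal depth it was -26.3 points.

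**Figure D2:**
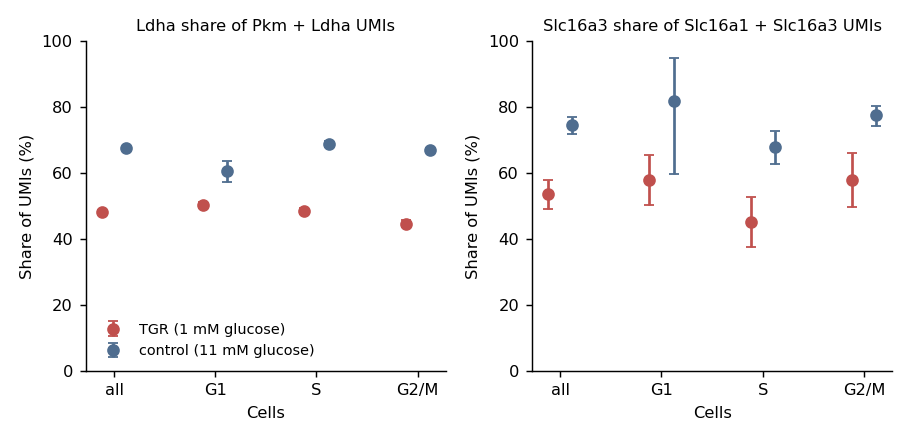
Left, Ldha as a percent of Pkm and Ldha UMIs; right, Slc16a3 as a percent of Slc16a1 and Slc16a3 UMIs, in all kept cells and in each cell cycle phase, for TGR (red, left of each pair) and control (blue), with 95% exact binomial intervals. The TGR share is below the control share in every pair, at 48.3% against 67.5% and 53.5% against 74.6% over all cells. For Slc16a3 in G1 the intervals overlap, with 22 UMIs in control.

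Bsg lies at chr10:79704491-79711969 on the plus strand. Basigin had 4661 UMIs, or 237 CPM, in TGR cells and 3977 UMIs, or 270 CPM, in control cells. The log2 ratio was -0.19 with an interval of -0.25 to -0.13, close to the median of all scored genes. Its sign depended on scaling, with 0.07 when ribosomal protein and mitochondrial genes were left out and 0.53 per cell. Bsg was detected in 73.3% of TGR and 64.5% of control cells, and in 30.4% and 31.9% after thinning. Its UMIs were many times more numerous than those of the 2 transporters it carries in both libraries.

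The order of the 6 levels differed between the libraries at its top. TGR cells ranked Pkm, Ldha, Bsg, Slc16a3, Slc16a1 and Ldhb, and the counting intervals of Slc16a3 (11.9 to 15.2 CPM) and Slc16a1 (10.3 to 13.3 CPM) overlapped. Control cells ranked Ldha, Pkm, Bsg, Slc16a3, Slc16a1 and Ldhb, and no neighbouring intervals overlapped. These are UMI levels, 1 count per captured 3′ end, and were not divided by transcript length.

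Cell cycle phase was called from S and G2/M genes, none of which is among the 6, in cells thinned to 1500 UMIs. The TGR library had 1145 cells in G1, 825 in S and 576 in G2/M, and the control library 141, 1041 and 1854. G1 cells were thus 45.0% of TGR and 4.64% of control cells. Depth moved with phase: the median cell in G1, S and G2/M had 5325, 6490 and 8055 UMIs in TGR and 2555, 3800 and 4421 UMIs in control. The part of depth and of free RNA in the phase calls was not tested.

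The difference in Ldha between the libraries was small in G1 and larger in S and G2/M, with counting intervals that do not overlap the one in G1. In G1 it was at 955 CPM in TGR and 1186 CPM in control cells, a log2 ratio of -0.31 (interval -0.44 to -0.19) that does not reach 1.5-fold. In S phase it was at 835 CPM in TGR and 1632 CPM in control cells, a log2 ratio of -0.97 (-1.02 to -0.92). In G2/M it was at 756 CPM in TGR and 1648 CPM in control cells, a log2 ratio of -1.12 (-1.17 to -1.07). Ldha was thus highest in G1 and lowest in G2/M in TGR cells, and lowest in G1 in control cells. Relative to G1 of the same library, Ldha in S was -0.19 (log2) in TGR and 0.46 in control cells, and in G2/M -0.34 in TGR and 0.47 in control cells. None of these 4 within-library differences reaches 1.5-fold. With phases called on unthinned cells the control values were 0.74 in S and 0.70 in G2/M, which do, and the TGR values -0.22 and -0.36.

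Set against G1 of their own library, few of the 6 genes passed 1.5-fold. In TGR cells 0 of 6 were called in S, where 1.23% of scored genes were lower and 8.62% higher than in G1, and 0 of 6 in G2/M, where 3.66% were lower and 11.1% higher. Ldhb in G2/M of TGR cells was 1.55-fold above G1 (interval 1.02 to 2.41) but stayed under 10 CPM, at 8.91 and 5.71 CPM. In control cells 1 of 6 was higher in S, where 4.78% of genes were lower and 5.97% higher: Slc16a1, at 23.7 CPM in S and 8.31 CPM in G1, the last from 4 UMIs. In G2/M of control cells 1 of 6 was higher, where 4.14% were lower and 6.77% higher: Slc16a3, at 63.3 CPM in G2/M and 37.4 CPM in G1. The genes called depended on the phase calls: on unthinned cells, Ldha in place of Slc16a1 was called higher in S of control cells, Ldha joined Slc16a3 in G2/M, and Slc16a1 was called higher in S of TGR cells (log2 0.72).

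The order of Ldha by phase in TGR cells was not seen among shallow cells. In cells under 4000 UMIs, the log2 ratio over G1 in TGR was -0.10 for S (interval -0.31 to 0.11, 92 against 267 cells) and 0.10 for G2/M (-0.20 to 0.38, 37 cells). In control cells of that depth it was 0.45 for S and 0.35 for G2/M, with both intervals above 0. Calling phases without thinning left Ldha at a log2 ratio of -0.04 between the libraries in G1. The G1 comparison rests on 141 control cells, or on 109 where phases were called without thinning.

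Pkm had log2 ratios of 0.28 in G1, 0.25 in S and 0.21 in G2/M, none of which reaches 1.5-fold. With phases called on unthinned cells they were 0.56 (interval 0.34 to 0.79), 0.21 and 0.23. Its level was 940, 882 and 935 CPM in TGR cells and 773, 739 and 807 CPM in control cells, in that order of phases. The share of Ldha among Pkm and Ldha UMIs was 50.4% in TGR and 60.6% in control G1 cells, 48.6% and 68.8% in S, and 44.7% and 67.1% in G2/M. In G2/M, cells with more Ldha than Pkm made up 26.6% of TGR and 76.6% of control cells. In G1 they made up 45.2% of TGR and 55.3% of control cells. Cells with equal counts made up 12.3% of TGR and 22.0% of control cells in G1, and 9.20% and 9.76% in G2/M. These UMIs were counted without thinning, and the part of depth in these percents was not tested.

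Slc16a3 was lower in TGR in each phase. It was at 13.7 CPM in TGR and 37.4 CPM in control G1 cells, where the control value rests on 18 UMIs, for a log2 ratio of -1.44 (interval -2.18 to -0.63). In S it was at 11.6 and 50.3 CPM (log2 -2.11) and in G2/M at 15.5 and 63.3 CPM (log2 -2.03). With phases called on unthinned cells, the G1 ratio was -0.67 and its interval included 0. Slc16a1 had only 4 control UMIs in G1 and its ratio there, 0.25, has an interval of -1.16 to 2.17. In S and G2/M its log2 ratios were -0.75 and -0.70, and on unthinned cells -0.57, no longer called, and -0.84. The Slc16a3 share of the 2 transporters was 58.0% in TGR and 81.8% in control G1 cells (18 of 22 UMIs). It was 45.1% and 67.9% in S, and 58.0% and 77.6% in G2/M. In G1 the intervals of this share overlap, at 50.3 to 65.5 in TGR and 59.7 to 94.8 in control.

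Bsg had a log2 ratio of 0.19 in G1, with an interval of -0.08 to 0.47, of -0.40 in S and of -0.28 in G2/M. With phases called on unthinned cells its G1 ratio was 0.62 and called higher. In TGR cells its level was 273 CPM in G1, 210 CPM in S and 221 CPM in G2/M. Ldhb intervals included 0 in all 3 phases. Counted over genes and phases, 7 of 18 ratios were called lower and 0 higher: 1 in G1 (13.6% of all scored genes there), 3 in S (20.0%) and 3 in G2/M (22.4%). The shares of scored genes called higher were 4.29% in G1, 11.2% in S and 12.0% in G2/M. With phases called on unthinned cells, 5 of the 18 were called lower and Bsg in G1 was called higher. The shares of all scored genes were not computed for those calls.

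**Figure D3:**
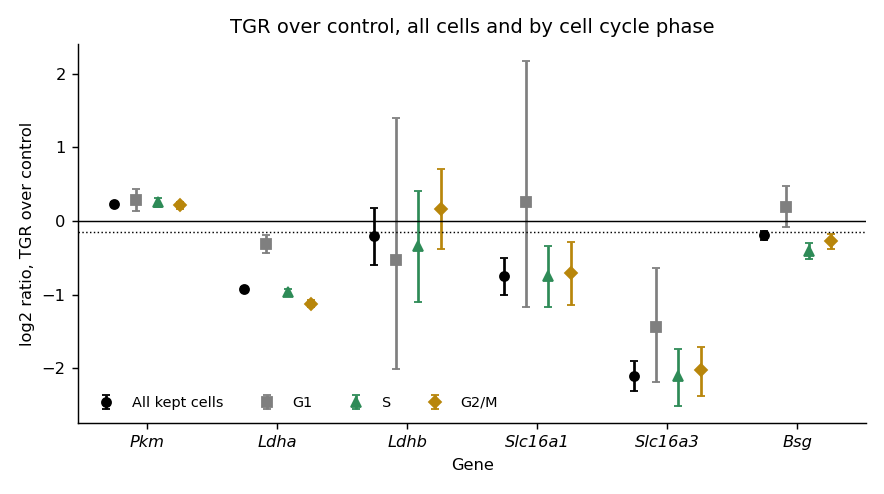
Log2 ratio of TGR over control for each gene in all kept cells (black) and in G1, S and G2/M cells, with 95% counting intervals; the solid line marks 0 and the dotted line the median of all scored genes, -0.16. The Ldha ratio goes from -0.31 in G1 to -1.12 in G2/M, the Pkm ratios lie between 0.21 and 0.28, and the G1 intervals of Ldhb, Slc16a1 and Slc16a3 are wide because few control UMIs fell there.

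Within bands of UMIs per cell, chosen after the data were seen, Ldha and Slc16a3 were lower in TGR in each band. Split by depth (under 4000, 4000 to under 8000, 8000 and over), the Ldha log2 ratio was -0.71, -0.90 and -1.05. For Slc16a3 it was -1.74, -2.19 and -2.20 and for Pkm 0.30, 0.25 and 0.17. Slc16a1 had only 9 TGR UMIs in the lowest band. The bands held 396, 1321 and 829 TGR cells and 1539, 1195 and 393 control cells.

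Among single cells of equal depth, Ldha varied more than the median gene of like level. Its variance divided by its mean was 1.37 in TGR and 1.502 in control cells, while the median of the genes nearest to its mean was 1.12 over 31 genes in TGR and 1.14 over 32 genes in control. Of these genes, 83.9% in TGR and 93.8% in control had a lower value than Ldha. For Pkm it was 1.19 in TGR and 1.15 in control cells. Pkm, Bsg (1.11 and 1.08), Slc16a3 (1.03 and 1.09) and Slc16a1 (1.02 and 1.01) were also above the median of genes of like level in both libraries. Slc16a3 in control exceeded 96.6% of its like genes. Ldhb was just under that median in both libraries. Correlations of the 6 genes from cell to cell were low in these thinned counts. The highest value over all cells of a library was the Pearson r of Pkm with Ldha, 0.15 in TGR over 2546 cells and 0.13 in control over 3036. Means of Ldhb, Slc16a1 and Slc16a3 were only 0.0098 to 0.088 UMIs per cell. Counting noise alone holds r near 0 at such means, so these values cannot show whether the genes vary together. These are thinned counts of cells from 1 library each and give no finding beyond that.

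**Figure D4:**
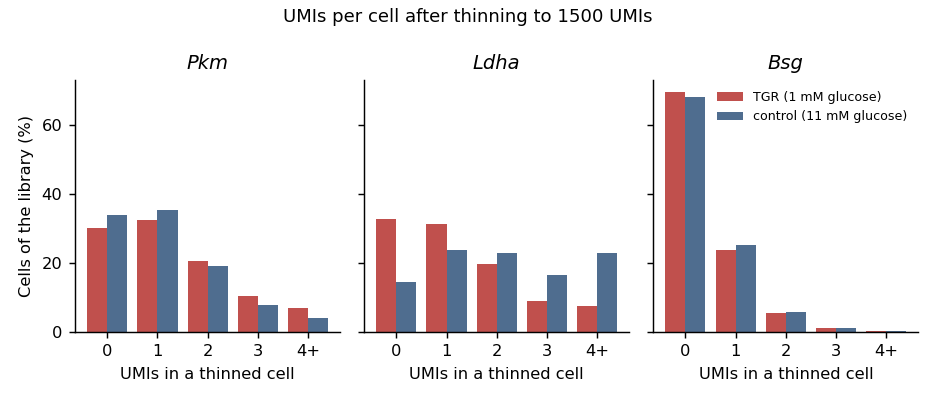
Percent of cells of each library (vertical axis) by the number of UMIs of Pkm, Ldha and Bsg in a cell thinned to 1500 UMIs (horizontal axis), for TGR (red, left bar) and control (blue). For Ldha, 32.8% of TGR and 14.3% of control cells had 0 UMIs and 7.42% and 22.7% had 4 or more, while the Pkm and Bsg bars of the libraries lie close together.

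Cells with and without a UMI of other genes were compared within a library, in thinned cells. Control cells with a Tfrc UMI (the transferrin receptor, 496 cells) had 90.1 CPM of Slc16a3 and those without (2540 cells) 52.2 CPM, a log2 difference of 0.78 (interval 0.36 to 1.19). In TGR cells with a UMI of Ddit3, the stress factor CHOP (741 cells), Ldha was at 893 CPM and Pkm at 890 CPM, against 870 and 896 CPM in the 1805 cells without one. Cells with a UMI of granzyme B (Gzmb) had 957 CPM of Ldha against 809 CPM in cells without in TGR, and 1661 against 1432 CPM in control. In the 115 control cells with an Ifitm1 UMI, Ldha was at 1478 CPM, against 1568 CPM in those without.

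The enzymes upstream of pyruvate kinase stood on both sides. Of 16 genes from hexokinase to enolase, 13 reached 10 CPM. Of these, 4 were higher in TGR (Gpi1, Aldoa, Aldoc and Pgk1), 3 were lower (Pfkl, Tpi1 and Pgam1) and 6 were neither, with a median log2 ratio of 0.16. Of all scored genes, 9.33% were higher and 21.8% lower. Aldoa, an aldolase, was at 1834 CPM in TGR and 767 CPM in control cells. Pgk1, phosphoglycerate kinase, was at 58.4 and 22.1 CPM. Gapdh was at 2695 CPM in TGR and 1862 CPM in control cells, which is 1.45-fold higher and not called. Tpi1 (356 and 614 CPM) and Pgam1 (176 and 375 CPM) stood on the lower side with Ldha. Without ribosomal protein and mitochondrial genes in the totals, 6 of the 13 were higher (Gapdh and Eno1 joined) and 2 lower (Pfkl and Pgam1). The shares of all scored genes were then 19.5% and 11.7%. Per cell and unscaled, 7 were higher and 0 lower, against 48.2% and 3.07% of all scored genes.

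Most related carriers and enzymes were at or near 0. Of 21 genes, 10 had no UMI, among them the liver pyruvate kinase Pklr, the testis dehydrogenase Ldhc, the carriers Slc16a7 and Slc16a8, the sodium-coupled carriers Slc5a8 and Slc5a12 and the lactate receptor Hcar1. Their counts of 0 allow up to 3 UMIs per library. The 3 that reached 10 CPM were Slc16a6, lower in TGR at 14.1 against 23.3 CPM, and the relatives of basigin Emb, at 106 in TGR and 124 CPM in control, and Nptn, at 20.9 and 18.2 CPM. The call on Slc16a6 did not hold without ribosomal protein and mitochondrial genes in the totals, nor per cell. Of the extracellular partners of basigin, cyclophilin A (Ppia) was lower in TGR, at 2176 against 3972 CPM, and cyclophilin B (Ppib) was at 221 in TGR and 287 CPM in control cells. Ppia was not called per cell.

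On the route by which pyruvate enters mitochondria, 9 of 14 genes were scored, 3 were lower in TGR and 0 higher. Of all scored genes, 21.8% were lower and 9.33% higher. The median of the 9 was -0.45. Both subunits of the mitochondrial pyruvate carrier were among the 3: Mpc1 was at 93.98 CPM in TGR and 157 CPM in control cells, and Mpc2 at 98.8 and 162 CPM. The third was Pdk3, a pyruvate dehydrogenase kinase, at 20.6 in TGR and 31.2 CPM in control. Pdha1, the catalytic subunit of pyruvate dehydrogenase, was at 51.4 and 55.8 CPM and Pdk1 at 71.8 and 61.6 CPM. None of the 3 was called lower without ribosomal protein and mitochondrial genes in the totals, where the median was -0.18 and 11.7% of all scored genes were lower. Per cell 2 of 9 (Pdha1 and Pdk1) were higher, against 48.2% of all scored genes. Of 14 genes of the NADH shuttles and of pyruvate and alanine exchange, 9 were scored. Of these, 4 were lower (Me2, Got2, Mdh1 and Mdh2) and 0 higher, against 21.8% and 9.33% of all scored genes, with a median of -0.37. Me2, a malic enzyme, was at 45.1 CPM in TGR and 104 CPM in control cells. Without ribosomal protein and mitochondrial genes in the totals Me2 and Got2 were still lower (median -0.11), against 11.7% of all scored genes. Per cell 2 of 9 (Gpd2 and Slc25a12) were higher, against the same 48.2%. Below 10 CPM and so not counted, Gpt2, an alanine aminotransferase, had 102 UMIs in TGR and 12 in control cells, 6.17-fold higher (log2 interval 1.80 to 3.67), and Slc25a13, a mitochondrial aspartate and glutamate carrier, had 73 and 105 UMIs, a log2 ratio of -0.94. These 2 were named after their values were seen.

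Of 16 genes that regulate this step, 15 were scored, 4 were lower in TGR and 0 higher, with a median of -0.08. Of all scored genes, 21.8% were lower and 9.33% higher. Of the splicing factors known to favour the M2 form of pyruvate kinase, Hnrnpa2b1 was at 205 CPM in TGR and 560 CPM in control cells and Ptbp1 at 91.2 and 150 CPM, both lower, while Hnrnpa1 was at 576 and 520 CPM. Srsf3, another splicing factor of that exon pair, was lower at 209 in TGR against 539 CPM in control. The fourth was Egln3, a prolyl hydroxylase of the HIF pathway, at 21.9 in TGR and 44.7 CPM in control. Hif1a was at 99.7 CPM in TGR and 70.1 CPM in control cells, and Myc at 28.8 and 34.7 CPM, neither of them called. The sign of the median depended on scaling. It was 0.18 without ribosomal protein and mitochondrial genes in the totals, with 3 lower and Hif1a higher (11.7% and 19.5% of all scored genes). Per cell it was 0.63, with 8 of 15 higher (48.2% of all scored genes) and Hnrnpa2b1 and Srsf3 still lower (3.07%). Transcript levels of these factors say nothing of their activity.

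For each of the 6 genes, the 3 genes with the most similar pattern over the 6 sums of library and phase were sought among 3444 genes, by the root mean square difference of centred log2 levels. Ldha was closest to Psma3, a proteasome subunit, with a difference of 0.03, to Suclg1, a subunit of succinyl-CoA ligase, and to Tmed9, a cargo receptor; the median over all candidates was 0.41. Psma3 was at 154, 140 and 130 CPM in G1, S and G2/M of TGR cells and at 204, 280 and 282 CPM in control cells. Pkm was closest to Lims1, Zmynd8 and Trim25 and Bsg to Golga7, Serp1 and Rab7. Slc16a3 was closest to Ccdc124, the linker histone gene Hist1h1e and Fdps, with a difference of 0.21 for the nearest. Slc16a1 was closest to Tssc4, Gmps and Tsfm, and Ldhb to Tax1bp1, Plekha2 and Tspan32. The control G1 sum rests on 4 UMIs of Slc16a1, 4 of Ldhb and 18 of Slc16a3, so their matches are loose. Candidates had a mean of at least 25 CPM, which Ldhb does not reach. Ribosomal protein, mitochondrial and Gm or Rik genes were passed over.

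Transporter transcripts took a much larger part of the UMIs in the control barcodes removed for their mitochondrial share. These removed barcodes numbered 209, with 373702 UMIs, and the TGR library had only 2. Their median was 1545 UMIs, against 4030 in kept control cells, so folds of CPM are not folds of UMIs per barcode. Slc16a3 was at 356 CPM in the removed and 57.9 CPM in the kept control barcodes, 6.14-fold higher (interval 5.08 to 7.39). Bsg was at 1408 and 270 CPM, 5.21-fold higher, and Slc16a1 at 96.3 and 19.8 CPM, 4.86-fold higher. Pkm (0.793-fold) and Ldha (0.805-fold) were not called, and Ldhb had 5 UMIs. By the same rule 3 of the 6 were higher, against 35.9% of 7713 scored genes, whose median log2 ratio was 0.55. Called lower were 0 of the 6 and 11.1% of those genes. All 7 CD8 T cell markers in the files were also higher, by 2.11-fold to 4.60-fold, as were Slc16a6, Emb and Nptn, while 1 of 13 scored genes from hexokinase to enolase was higher and 3 were lower. With every deposited barcode kept, TGR over control (log2) was -2.27 for Slc16a3 and -0.33 for Bsg.

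**Figure D5:**
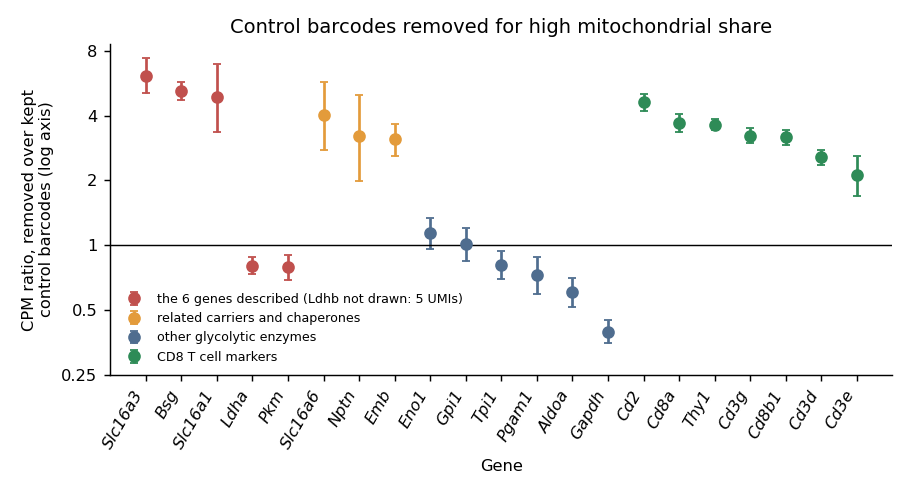
Fold (log axis) of CPM in the 209 removed over the 3127 kept control barcodes, with 95% counting intervals, for the genes described (red), related carriers and chaperones (orange), other glycolytic enzymes (blue) and CD8 T cell markers (green); the line marks 1. Slc16a3, Bsg and Slc16a1 lie between 4.86 and 6.14, and Ldha and Pkm lie just under 1. Some related carriers and glycolytic enzymes are not drawn, among them Pfkp (1.68-fold, called higher) and Pfkl (0.485-fold, called lower).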

How the data were processed

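The deposited matrices hold whole-number UMI counts that the authors left unnormalized, 1 value per gene and barcode. The labels' protocols name Chromium v2 kits and a HiSeq 3000, and the submitters' processing notes name Cell Ranger 2.2, Seurat 3 and mm10 without saying which step each served. How barcodes were filtered is not given in the sources used here; the fewest genes in a deposited barcode were 530 in TGR and 520 in control. UMIs were summed over kept cells and divided by their total (CPM). Log2 ratios had 0.5 UMI added per library, with 95% Clopper-Pearson intervals of the split of UMIs. The ratio script was tested on simulated data. Phases were called with scanpy 1.11.5 from 42 S and 54 G2/M genes. Doublets were not called; leaving out the 5% of cells with the most UMIs stands in for that. edgeR 4.0.16 and DESeq2 1.42.0 supplied alternative scaling factors only. Gene positions are from GENCODE on GRCm38, and no other gene in the files overlaps the 6. For Ldhb, a near-identical processed pseudogene (Gm5514) is annotated and is not in the files. Named genes are the 6, the 2 scored members of each list with the largest absolute ratio and the 2 with the highest level; other names complete short counts and were chosen after their values were seen. The 6 genes, the lists, the markers and the settings were chosen with earlier results of these data known.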

Additional observations from a re-analysis of the deposited data

Results flagged for a closer look

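In the cells with at least 1500 UMIs, G1 had the highest Ldha level of the 3 phases in TGR cells and the lowest in control cells. The same held for Psma3, Suclg1 and Tmed9, the genes found closest to Ldha in pattern. How many of all genes did so was not counted. Ldha in S and G2/M of control cells was about equal, at 1632 and 1648 CPM. Relative to G1 of the same library, its log2 level in S was -0.19 in TGR and 0.46 in control cells, and in G2/M -0.34 in TGR and 0.47 in control cells. The difference between the libraries was not tested, since each is 1 sample, and the control G1 level rests on 141 cells. In cells under 4000 UMIs the TGR values were -0.10 in S and 0.10 in G2/M, with intervals that include 0, and the control values 0.45 and 0.35.

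A signal also appeared outside the cells compared, in the 209 control barcodes with at least 10% mitochondrial UMIs. There the CPM of Slc16a3 was 6.14-fold, of Bsg 5.21-fold and of Slc16a1 4.86-fold higher than in the kept control cells. Within the kept control cells, Slc16a1 was at 15.1 CPM under 2% mitochondrial UMIs, 17.8 CPM from 2 to 4% and 39.6 CPM from 4 to 10%. Slc16a3 was at 68.2, 54.0 and 78.4 CPM in the same order, and Bsg at 305, 257 and 340 CPM.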

How the results depend on the processing

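No paired analysis was possible because each condition has 1 library. Slc16a3 was called lower in TGR in all 14 settings, Ldha in 13 and Slc16a1 in 10; the other 4 for Slc16a1 include the band from 8000 UMIs (-0.54) and the common phase mix (-0.57). Values below are log2 ratios of TGR over control. Totals without ribosomal protein and mitochondrial genes gave 0.50 for Pkm, -0.66 for Ldha, -0.49 for Slc16a1, -1.83 for Slc16a3 and a reversed sign, 0.074, for Bsg. Mean UMIs per cell gave 0.95 for Pkm (called higher), -0.21 for Ldha (no longer called), 0.50 for Ldhb, -0.037 for Slc16a1, -1.38 for Slc16a3 and 0.53 for Bsg, again reversed. edgeR's TMM factors gave 0.27 for Pkm and -0.88 for Ldha. Cells thinned to 1500 UMIs gave -0.84 for Ldha, -0.061 for Bsg, a Slc16a3 share difference of -26.3 points and an Ldha share difference of -17.6 points. Ldha was -0.88 both without the 5% of cells with the most UMIs and at a common phase mix. Every deposited barcode gave -0.33 for Bsg. In cells under 4000 UMIs, bands chosen after seeing the data, the ratios were 0.30 for Pkm, -0.71 for Ldha, -1.45 for Slc16a1, -1.74 for Slc16a3 and -0.074 for Bsg. From 4000 to under 8000 UMIs Bsg was -0.11, and from 8000 UMIs Pkm was 0.17 and Ldha -1.05. Genes lower in TGR numbered 781 without ribosomal protein and mitochondrial genes and 789 at a minimum of 50 CPM, against 1455. Genes higher numbered 1299 and 168 in the same settings and 1658 with no minimum, against 622. Why these values moved was not tested beyond what each setting changes. With phases called on unthinned cells, the G1 ratio moved to 0.56 for Pkm, -0.037 for Ldha and 0.62 for Bsg, and the other 15 ratios by phase stayed within their intervals. Of the values over all cells, 74 others stayed within the counting interval of the value given, or, for counts, within 1.5 times. Depth limits Ldhb and Slc16a1 most, above all in control G1 cells.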
